A study of Homo sapiens with 6 samples.

Results

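The 9 genes described here encode the cytosolic HSP70 chaperones and their relatives: HSPA1A, HSPA1B, HSPA2, HSPA8, HSPA13 and HSPA14, together with the HSP110 genes HSPA4, HSPA4L and HSPH1. They were chosen by symbol from the 30270 genes of the count table, with no measured value in the rule, and all 9 were present and tested. Earlier results of these data were known when the choice was made. The RNA came from HEK 293T cells, a line of human embryonic kidney origin that carries the SV40 large T antigen, grown without treatment. Wild-type cells (WT) gave 3 libraries, and a TENT3A/B double knockout, the other name of TUT4 and TUT7 and called ΔTUT4/7 by the study, gave 3. Each group is 1 line. WT came from a cell repository and ΔTUT4/7 from another laboratory, so the history of the line and its genotype cannot be told apart. The replicates are labelled biological but are not tied to separate lines, so p-values measure the spread between these libraries alone. In bulk RNA, fewer cells of a type and less RNA per cell cannot be told apart.

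HSP70 proteins bind exposed hydrophobic stretches of unfolded proteins in a cycle driven by ATP. J-domain proteins bring substrates and start ATP hydrolysis, while nucleotide exchange factors, among them the HSP110 proteins, release ADP so that the substrate is freed and the cycle begins again. HSPA8 is the constitutive member in most cells, whereas HSPA1A and HSPA1B are classic targets of HSF1, the transcription factor that binds arrays of inverted nGAAn units called heat shock elements.

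The promoter sequences show which members carry such elements close to the start site. The windows are the RefSeq ones (GRCh38.p14, 250 bases before to 50 after the start), which hold 8 of the 9 genes in 10 windows. HSPA14 has no entry. A 3-unit element was searched as GAANNTTCNNGAA or TTCNNGAANNTTC on both strands. The bases upstream of the 3 genes known as stress-inducible, HSPA1A (chr6:31815293-31815542, plus strand), HSPA1B (chr6:31827488-31827737, plus strand) and HSPH1 (chr13:31162389-31162638, minus strand), are printed first, with a match of at most 1 mismatch in capitals. For HSPA8, whose start is overlapped by a longer isoform, only the 30 bases around each of its exact matches are given (chr11:123062345-123062374 and chr11:123062170-123062199, minus strand), with the 3 units and their spacers in capitals.
HSPA1A: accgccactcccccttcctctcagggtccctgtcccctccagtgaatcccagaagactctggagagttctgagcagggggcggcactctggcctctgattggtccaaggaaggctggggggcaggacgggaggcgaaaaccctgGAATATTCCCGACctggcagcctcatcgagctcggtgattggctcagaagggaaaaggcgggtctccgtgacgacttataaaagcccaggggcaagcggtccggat
HSPA1B: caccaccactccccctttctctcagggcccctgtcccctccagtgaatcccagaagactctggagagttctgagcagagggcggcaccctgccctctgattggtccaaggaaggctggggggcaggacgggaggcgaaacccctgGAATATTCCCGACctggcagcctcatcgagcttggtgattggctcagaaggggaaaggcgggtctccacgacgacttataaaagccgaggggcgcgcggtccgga
HSPH1: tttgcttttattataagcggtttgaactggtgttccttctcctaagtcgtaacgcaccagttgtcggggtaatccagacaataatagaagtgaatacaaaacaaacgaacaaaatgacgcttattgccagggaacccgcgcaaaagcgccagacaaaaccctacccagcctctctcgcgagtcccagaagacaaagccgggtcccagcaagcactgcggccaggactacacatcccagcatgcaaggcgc
HSPA8 distal: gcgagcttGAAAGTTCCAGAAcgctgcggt
HSPA8 proximal: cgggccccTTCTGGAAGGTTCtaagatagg

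HSPA8 was the member with an exact 3-unit element, with matches starting at -230 and -55 relative to the start, against 0.49% of 35116 windows over all genes. HSPA1A and HSPA1B carried the element with 1 mismatch at -106 and -105. That looser form occurred in 4 of the 10 member windows (those of HSPA1A, HSPA1B, HSPA8 and 1 of the 3 windows of HSPA4L) and in 6.24% of all windows. The 2-unit form, GAANNTTC or TTCNNGAA, lies inside the longer ones and was present in the same 4 windows and in 13.5% of all windows. A TATAAA box stood at -30 in HSPA1A, at -29 in HSPA1B and at -89 in 1 of the HSPA4L windows, and 11.5% of all windows held one. The windows of HSPH1, HSPA4, HSPA2 and HSPA13 held no heat shock element of any of these forms, which says only that these letters are not in the 300 bases searched.

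HSPA1A and HSPA1B stand side by side on chromosome 6 and share 1922 of 1926 coding bases (99.8%) and 93.6% of the 250 upstream bases. Their near identity bears on how reads were divided between the pair. Of all 76-base windows (the read length) in their transcripts, 28.5% were unique to HSPA1A and 26.7% to HSPA1B, whereas HSPA2, HSPA4, HSPA13 and HSPH1 shared no window with another gene. HSPA8 was 91.9% unique, HSPA4L 94.2% and HSPA14 89.9%, and 244 windows of HSPA14 also occurred in MSANTD7. The coding sequences of the other pairs were further apart, at 80.6% identity for HSPA1A and HSPA2, 74.1% for HSPA1A and HSPA8, 68.7% for HSPA4 and HSPA4L, and 67.8% for HSPA4 and HSPH1.

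The libraries held 18757228 to 33148937 estimated counts each. TUT4, which the label gives as knocked out, had 211 ± 5.08 CPM (counts scaled to a fixed library total, SD, n = 3) in WT and 906 ± 21.4 CPM in the libraries labelled ΔTUT4/7. TUT7 had 62.6 ± 2.17 and 26.3 ± 1.04 CPM, a decrease. The higher TUT4 count is not what a loss of the transcript would give, whereas the TUT7 count is lower. The label does not say how the knockout was made, and RNA counts do not measure protein. A count over a whole gene also covers exons outside a deletion, and every direction given here rests on that label. Of the 4 genes listed as markers of this culture, VIM ran from 496 ± 22.9 to 1250 ± 5.77 CPM, KRT8 from 9.96 ± 2.44 to 3.43 ± 0.583 CPM, KRT18 from 30.5 ± 1.78 to 44.3 ± 1.42 CPM and PAX2 from 2.15 ± 0.305 to 1.45 ± 0.174 CPM. Their summed level, nearly all of it VIM, was 514.6 to 553.9 CPM in WT and 1292 to 1306 CPM in the libraries labelled ΔTUT4/7, while the single markers went both ways. Of the 4 fibroblast markers COL1A1 alone was in the table, at 20.4 ± 1.57 and 7.45 ± 0.801 CPM, and none of the 3 blood cell markers was. Their part in the results below was not tested.

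The expression of all 9 genes differed between the groups. In edgeR's quasi-likelihood test with Benjamini-Hochberg adjustment over 23952 tested genes, 6 members were higher and 3 lower in the libraries labelled ΔTUT4/7 at a false discovery rate (FDR) under 0.05. Differences were common in these data: 57.7% of all tested genes passed that threshold, 28.6% higher and 29.0% lower. Changes of 2-fold or more were rarer, at 5.90% of tested genes higher and 12.4% lower, and here the members counted 5 of 9 higher (HSPA1B, HSPH1, HSPA1A, HSPA8 and HSPA14) and 1 of 9 lower (HSPA2). The median log2 fold change was 1.08 over the members and -0.02 over all tested genes. For each of the 9 genes the 3 libraries of 1 group lay on 1 side of the 3 of the other, as did 30.9% of tested genes in the higher and 31.8% in the lower direction.

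**Figure D1:**
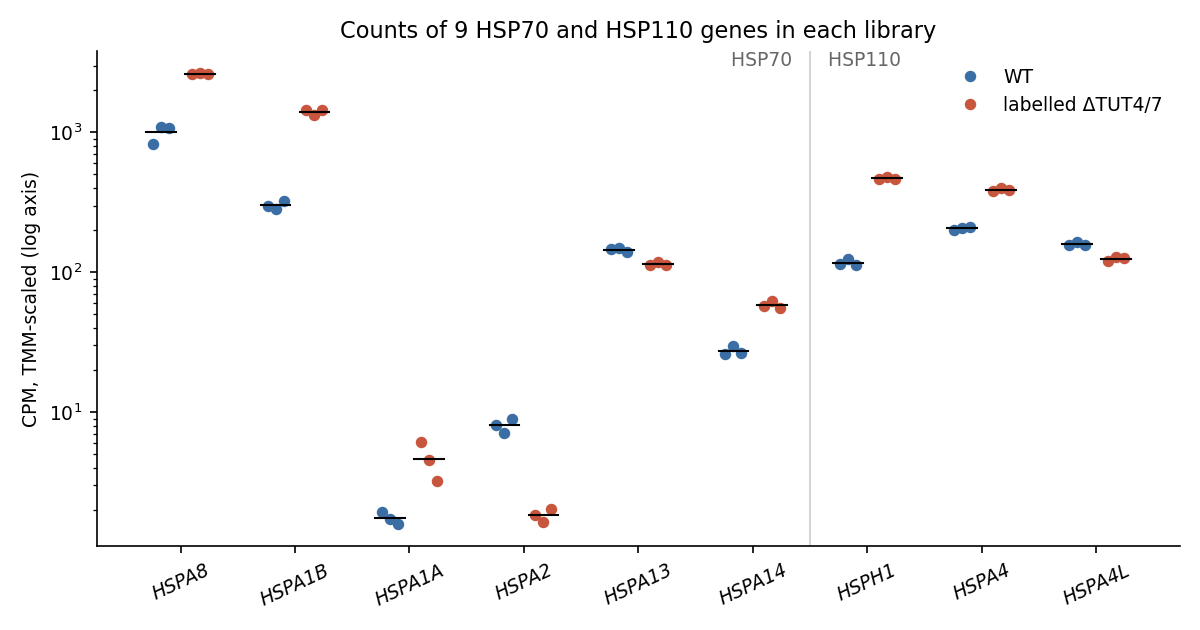
CPM (log axis) of the 9 genes in each of the 6 libraries, with blue points for the 3 WT libraries, red points for the 3 labelled ΔTUT4/7 and a bar at each mean. The groups do not overlap for any gene, WT replicate 1 stands below the other WT libraries for HSPA8, and the heights are not divided by transcript length, so they compare libraries rather than genes.

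HSPA1B, the copy of stress-inducible HSP70 given most of the pair's counts (chromosome 6, 31827738 to 31830254, plus strand), showed the largest increase of the family. It was at 295.8, 284.4 and 325.2 CPM in WT and at 1442, 1324 and 1455 CPM in the libraries labelled ΔTUT4/7. The lowest of the latter was thus far above the highest WT library. The rise was 4.66-fold, a log2 fold change of 2.22 ± 0.05 (SE, adjusted p 2.52e-17), and 1.17% of tested genes had a larger one. None of its 189 neighbours (genes within 5 Mb that averaged at least 50 counts) rose as far, and their median log2 fold change was 0.05. A lncRNA that overlaps HSPA1B on the same strand, AL671762.1, had 57.4 ± 3.11 and 60.7 ± 4.52 CPM and was not called (adjusted p 0.245).

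HSPA1A encodes virtually the same protein from the neighbouring gene (chromosome 6, 31815543 to 31817946, plus strand) but received very few counts, 38.0 to 48.6 in WT and 62.9 to 196.7 in the libraries labelled ΔTUT4/7. In CPM it stood at 1.934, 1.731 and 1.598 against 6.147, 4.536 and 3.218. The groups do not overlap, although the libraries labelled ΔTUT4/7 spread widely. Its log2 fold change was 1.43 ± 0.22 (adjusted p 1.17e-05), and it lay between 1.15 without ΔTUT4/7 replicate 1 and 1.63 without ΔTUT4/7 replicate 3. HSPA1B drew 174 ± 27.7 times as many counts as HSPA1A in WT and 326 ± 113 times as many in the other group. Since most 76-base windows fit both genes, the authors' estimation model decided how they were shared, and the split is uncertain. Summing both genes gave a log2 fold change of 2.22 (adjusted p 2.01e-17). That value lies well above the one of HSPA1A alone and does not depend on the split.

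HSPA8, the constitutive cytosolic HSP70 known as HSC70 (chromosome 11, 123057489 to 123063230, minus strand), had the highest CPM of the family in both groups. Its WT libraries had 819.6, 1099 and 1080 CPM, and those labelled ΔTUT4/7 had 2608, 2643 and 2633 CPM. WT replicate 1 stood below the other WT libraries, while the 3 libraries labelled ΔTUT4/7 lay close together. The increase was 2.63-fold, with a log2 fold change of 1.39 ± 0.12 and an adjusted p of 0.000286. Without WT replicate 1 the log2 fold change was 1.26 ± 0.05 and the adjusted p fell to 9.5e-14. Among the 5892 genes averaging at least 1000 counts, 67 (1.14%) had a larger SD of log2 CPM among the WT libraries than HSPA8.

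The pseudogenes of HSPA8, 13 processed and 1 unprocessed in the table, resemble the parent gene, so some of their reads may belong to it. Of the 14, 12 were tested, of which 6 were higher, 2 lower and 4 not called. Over all tested genes 28.6% were higher and 29.0% lower. The 2 lower calls rested on very few counts, and were lost in 6 of 14 alternatives for HSPA8P11 and in 1 of 15 for HSPA8P14. HSPA8P1 went from 1.222, 2.577 and 2.315 CPM to 4.93, 4.949 and 6.282 CPM, and HSPA8P7 from 0.9163, 1.808 and 2.054 to 5.086, 4.846 and 4.852 CPM. In both, WT replicate 1 was the lowest library, as it was for the parent. Adding the pseudogene counts to HSPA8 left its log2 fold change at 1.39 (adjusted p 0.000285).

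HSPA14, an HSP70 that works at the ribosome with the J-domain protein DNAJC2 (chromosome 10, 14838306 to 14871741, plus strand), rose 2.12-fold. Its levels were 25.96, 29.88 and 26.54 CPM in WT and 57.23, 62.17 and 55.16 CPM in the libraries labelled ΔTUT4/7. All of the latter were clearly higher. The log2 fold change of 1.08 ± 0.07 (adjusted p 1.38e-11) was just past 2-fold, and it was 0.97 with library sizes alone. Its partner DNAJC2 had a log2 fold change of 0.34 ± 0.08 (adjusted p 0.00325). HSPA14 overlaps a protein-coding gene on the same strand, AC069544.2, which had a log2 fold change of 0.67 ± 0.05, so the division of reads between them is uncertain. CDNF, on the opposite strand, went from 3.92 ± 0.588 to 1.10 ± 0.316 CPM. The median log2 fold change of the 46 neighbours of HSPA14 was also above 0, at 0.34.

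HSPA2 and HSPA13 were lower. HSPA2, an HSP70 best known from the testis (chromosome 14, 64535905 to 64546173, plus strand), stood at 8.145, 7.153 and 8.902 CPM in WT and at 1.841, 1.65 and 2.043 CPM in the libraries labelled ΔTUT4/7. It was scarce in WT and scarcer in all 3 of the others, with 160 to 273 counts against 32 to 59. This is a 4.37-fold decrease and a log2 fold change of -2.13 ± 0.16 (adjusted p 2.37e-10). Of its 64 neighbours 1 fell further, and their median was 0.16. A Y_RNA annotation and the lncRNA AL049869.2 overlap the span of HSPA2, and neither was called. Their log2 fold changes were 0.07 (adjusted p 0.554) and 0.15 (adjusted p 0.68). The HSPA2 transcripts shared no read-length window with another gene. How reads in the overlapping spans were assigned was not tested. HSPA13, a microsomal relative that lacks the substrate-binding part (chromosome 21, 14371115 to 14383484, minus strand), had 147.4, 149.6 and 139.4 CPM against 113.7, 119.2 and 112.1 CPM. The decrease was small beside that of HSPA2 but larger than the spread of the libraries, 1.27-fold, with a log2 fold change of -0.34 ± 0.05 (adjusted p 2.43e-06). Of its 12 neighbours 7 were higher and 2 lower, with a median of 0.29, and relative to that median the change of HSPA13 was -0.62.

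HSPH1, the stress-inducible HSP110 also called HSP105 (chromosome 13, 31134973 to 31162388, minus strand), had the second largest increase. It was measured at 114, 123.9 and 111.9 CPM in WT and at 462.8, 482.3 and 467.9 CPM in the libraries labelled ΔTUT4/7. Both groups were tight and far apart. The rise was 4.04-fold, with a log2 fold change of 2.01 ± 0.05 and an adjusted p of 3.36e-18, and 18 of the 23952 tested genes had a smaller p. The 95% confidence interval of its log2 fold change, 1.91 to 2.11, met that of HSPA1B, 2.11 to 2.33. None of its 38 neighbours rose as far, and their median was -0.01.

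The other HSP110 genes moved apart. HSPA4, the constitutive HSP110 also called APG-2 (chromosome 5, 133052013 to 133106449, plus strand), had 200.5, 208.9 and 212.3 CPM in WT and 378.8, 403.3 and 385.9 CPM in the libraries labelled ΔTUT4/7. That is 1.88-fold higher, a log2 fold change of 0.91 ± 0.04 (adjusted p 1.84e-13). HSPA4L, its close paralog APG-1 (chromosome 4, 127781821 to 127840733, plus strand), had 157.7, 163.4 and 156.7 CPM against 121, 128.8 and 126.7 CPM. All 3 libraries labelled ΔTUT4/7 were lower, by 1.27-fold, with a log2 fold change of -0.35 ± 0.05 (adjusted p 1.14e-06). The region of HSPA4L on chromosome 4 was also lower as a whole: of 17 neighbours 13 were lower and 2 higher, with a median of -0.86. Relative to that median the change of HSPA4L was 0.51, so its direction reverses when the neighbours are subtracted.

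**Figure D2:**
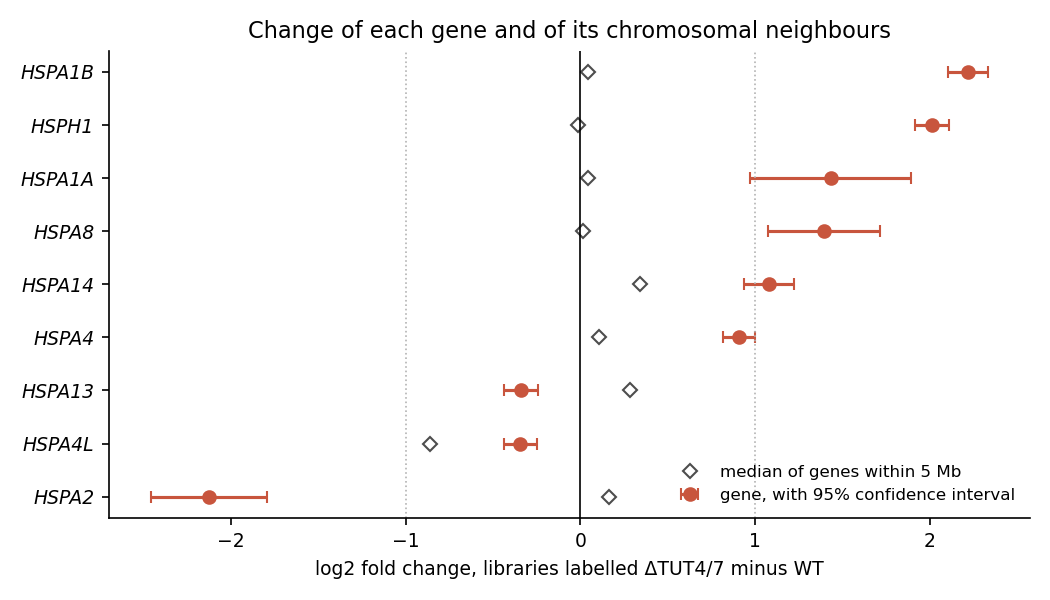
Log2 fold change of each gene (libraries labelled ΔTUT4/7 minus WT, 3 against 3) with its 95% confidence interval in red, and the median of the genes within 5 Mb as open diamonds, with dotted lines at 2-fold. HSPA1B, HSPH1, HSPA1A and HSPA8 stand far from neighbours whose medians lie near 0, whereas HSPA4L at -0.35 lies above its neighbours at -0.86.

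Levels can be compared between genes only per length of transcript, here as CPM per kb of the Ensembl canonical transcript. In WT the order was HSPA8 at 442 ± 69.0, HSPA1B at 120 ± 8.36, HSPA4 at 43.4 ± 1.27, HSPA13 at 36.9 ± 1.37 and HSPH1 at 22.2 ± 1.23 CPM per kb. HSPA14 (15.6 ± 1.20) and HSPA4L (15.0 ± 0.341) followed and could not be ordered, since their ranges overlapped, and HSPA2 (3.23 ± 0.351) and HSPA1A (0.731 ± 0.0707) were lowest. The places of HSPA1A and HSPA1B rest on the uncertain split of reads between them. In the libraries labelled ΔTUT4/7, HSPA8 was at 1161 ± 7.93 and HSPA1B at 559 ± 28.6 CPM per kb. HSPH1 rose from the fifth place to the third, at 89.8 ± 1.93 against 81.6 ± 2.64 for HSPA4, and HSPA14 (33.0 ± 2.04) passed HSPA13 (29.2 ± 0.946). HSPA4L (11.8 ± 0.378), HSPA1A (1.93 ± 0.611) and HSPA2 (0.739 ± 0.0788) came last. No 2 genes overlapped in this group. Parts of this order rest on the transcript length. Per kb of all annotated exons, an alternative chosen after seeing the data, HSPA8 (542 ± 3.70) and HSPA1B (559 ± 28.6) overlapped in the libraries labelled ΔTUT4/7. On that scale HSPH1 (56.1 ± 1.21) stayed below HSPA4 (76.7 ± 2.48), and HSPA14 (23.3 ± 1.44) below HSPA13 (27.7 ± 0.899).

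Summed over the 9 genes, the transcripts rose from 699 ± 73.0 to 1968 ± 17.4 CPM per kb, a 2.82-fold increase. The share of HSPA8 in that sum was 58.9%, 65.6% and 64.3% in WT and 58.5%, 59.9% and 58.6% in the libraries labelled ΔTUT4/7. These values overlap, and the difference of means, -3.97 percentage points, did not pass an exact two-sided permutation test (p = 0.2, where 0.1 is the smallest that 3 against 3 allows). The difference was -5.99 points without WT replicate 1, -2.64 without WT replicate 2 and -0.0587 with counts not divided by length. HSPA1B went from 17.3% ± 1.93 to 28.4% ± 1.23 of the sum, and HSPH1 from 3.20% ± 0.330 to 4.57% ± 0.131. Per kb of all annotated exons the share of HSPA1B went from 27.2% ± 2.39 to 43.1% ± 1.55. The shares of HSPA13 (5.33% ± 0.681 to 1.48% ± 0.0609), HSPA4 (6.25% ± 0.511 to 4.15% ± 0.163) and HSPA4L (2.17% ± 0.226 to 0.601% ± 0.0215) were lower. Those of HSPA14 (2.24% ± 0.190 to 1.68% ± 0.119) and HSPA2 (0.466% ± 0.0729 to 0.0375% ± 0.00367) were lower too. The groups overlapped in the shares of HSPA8 and HSPA1A and in no other.

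**Figure D3:**
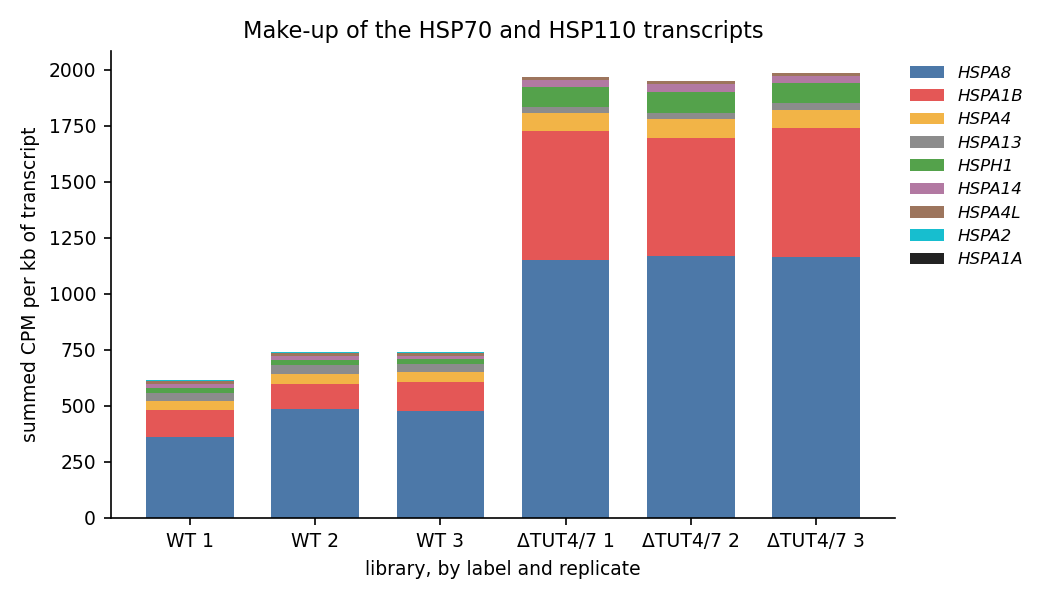
Summed CPM per kb of canonical transcript in each of the 6 libraries, stacked by gene. The bars reach 614.3 to 741.6 in WT and 1950 to 1985 in the libraries labelled ΔTUT4/7, with HSPA8 (blue) and HSPA1B (red) making up most of each and the HSPA1B part 17.3% of the WT and 28.4% of the other sum on average.

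Ratios of counts within a library do not depend on how libraries are scaled, and 4 were compared. HSPA1B to HSPA8, inducible to constitutive HSP70, was 0.3609, 0.2588 and 0.301 in WT and 0.5529, 0.5011 and 0.5524 in the libraries labelled ΔTUT4/7, a difference of 0.81 on the log2 scale. HSPH1 to HSPA8 went from 0.119 ± 0.0184 to 0.179 ± 0.00284 (log2 difference 0.61). HSPA4 to HSPA8 went the other way, from 0.210 ± 0.0298 to 0.148 ± 0.00392 (-0.50). HSPA4L to HSPA4, the ratio of the paralogs, was 0.769 ± 0.0268 in WT and 0.322 ± 0.00516 in the others, and at -1.25 it was the largest shift of the 4. None of the ratios overlapped between the groups, and each exact two-sided permutation test gave p = 0.1, the smallest possible (0.1 when adjusted over the 4), so the design could not reach 0.05. Per kb, the sum of the 3 HSP110 genes relative to HSPA8, HSPA1A and HSPA1B was 0.145 ± 0.0165 in WT and 0.106 ± 0.00417 in the libraries labelled ΔTUT4/7: the HSP110 sum rose 2.27-fold and the HSP70 sum 3.06-fold.

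The partners of the HSP70 cycle were taken from fixed lists. The shares to set beside each list are those of all tested genes: 28.6% higher, 29.0% lower and 5.90% at least 2-fold higher. Of 12 J-domain proteins tested, 6 were higher, 1 lower and 5 not called, with 2 at least 2-fold higher and a median log2 fold change of 0.23. DNAJC6, the neuronal auxilin that uncoats clathrin vesicles, had the largest rise (19.1 ± 0.689 to 56.1 ± 1.73 CPM, log2 fold change 1.55 ± 0.06), followed by DNAJB6 (1.01 ± 0.05), which holds back aggregation, and DNAJA1 (0.80 ± 0.05). DNAJB4 was lower (-0.30 ± 0.07, adjusted p 0.000615). DNAJB1, the stress-inducible HSP40 and an HSF1 target, stood at 100.7, 98.07 and 104.7 CPM in WT and at 95.05, 96.4 and 104.1 CPM in the libraries labelled ΔTUT4/7. The groups overlapped, and its log2 fold change of -0.04 ± 0.05 (adjusted p 0.525) had a 95% confidence interval of -0.15 to 0.07. With library sizes alone or upper-quartile scaling DNAJB1 was called lower.

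All 6 tested exchange factors of the other families, the BAG proteins and HSPBP1, were higher, 2 of them at least 2-fold, with a median of 0.92. BAG1 had a log2 fold change of 1.13 ± 0.06, HSPBP1 of 1.00 ± 0.10, BAG2 of 0.92 ± 0.06 and BAG3, the stress-inducible one, of 0.91 ± 0.07. In the list of the HSP90 genes and factors that act with HSP90 or HSP70, 9 of 10 were higher, 7 at least 2-fold. The other was lower, and the median was 1.20. Over all tested genes 28.6% were higher and 5.90% at least 2-fold higher. The HSP90 activator AHSA1 (1.35 ± 0.05) and both HSP90 genes, HSP90AB1 (1.35 ± 0.04) and HSP90AA1 (1.32 ± 0.04), led the list. STUB1, the ubiquitin ligase CHIP that binds HSP70 and HSP90, was higher by 0.67 ± 0.06, and ST13, the HSP70-interacting protein HIP, was lower by a log2 fold change of -0.21 ± 0.04 (adjusted p 0.000378).

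**Figure D4:**
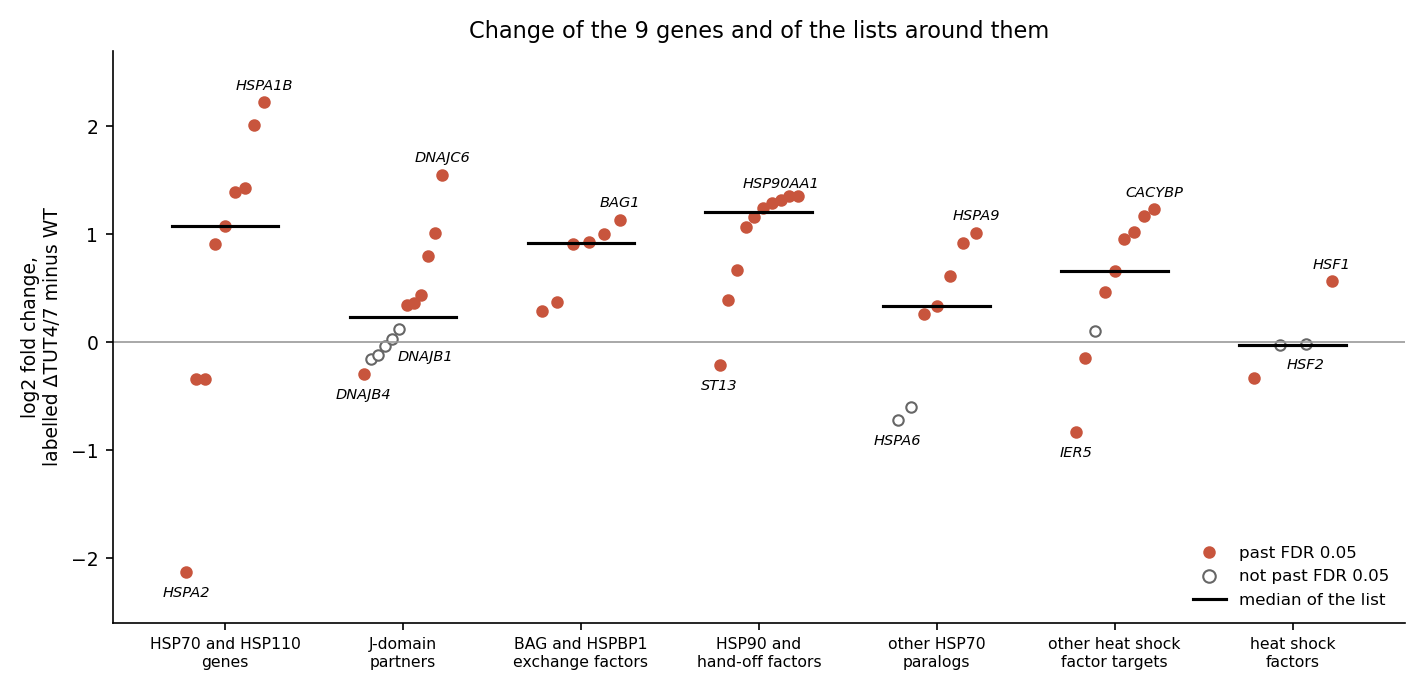
Log2 fold change (libraries labelled ΔTUT4/7 minus WT) of each tested gene in the 9-gene family and in 6 lists around it, with filled points past an FDR of 0.05 in edgeR, open points not past it and a line at the median of each list. Medians run from -0.02 for the heat shock factors to 1.20 for the list headed HSP90 and hand-off factors, which also holds other partners of HSP90 and HSP70. DNAJB1, HSPA6 and HSF2 are open points.

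Of the 4 heat shock factor genes, which include the HSF1-binding protein HSBP1, 1 was higher, 1 lower and 2 not called. These counts lie near the shares of all tested genes, 28.6% higher and 29.0% lower. HSF1 rose from 34.4 ± 3.00 to 50.7 ± 3.70 CPM (log2 fold change 0.56 ± 0.07, adjusted p 8.09e-07), and HSF2 was at 60.6 ± 4.15 and 60.0 ± 4.66 CPM (adjusted p 0.86). The HSF4 call (-0.33 ± 0.14, adjusted p 0.0444) was lost in 7 of 16 alternatives. Of 10 other genes known as heat shock factor targets, 9 were tested, with 6 higher, 2 lower and 1 not called and a median of 0.66. CACYBP (1.23 ± 0.05), the small heat shock protein HSPB1 (1.17 ± 0.11) and the mitochondrial co-chaperonin HSPE1 (1.02 ± 0.10) were at least 2-fold higher. IER5, an immediate-early gene, was lower (-0.83 ± 0.07).

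The other HSP70 paralogs comprised 7 tested genes, of which 5 were higher and 2 not called, with a median of 0.34. Among all tested genes 28.6% were higher. HSPA9, the mitochondrial HSP70, rose from 371 ± 8.40 to 748 ± 10.3 CPM (log2 fold change 1.01 ± 0.04). HSPA12B (0.92 ± 0.23), a distant relative found in endothelium, was also higher. It rested on few counts, 25 to 41 in WT and 36 to 89 in the libraries labelled ΔTUT4/7. HYOU1 (0.61 ± 0.05), the HSP110-like protein of the endoplasmic reticulum, was higher, and HSPA5, the HSP70 of that compartment, was higher by 0.27 ± 0.05. HSPA6, which is expressed almost only under strong stress, was close to absent, at 0.56, 0.6153 and 0.5543 CPM in WT and 0.4057, 0.4124 and 0.2043 CPM in the libraries labelled ΔTUT4/7. Its lower values did not pass the test (-0.72 ± 0.45, adjusted p 0.179). The same held for HSPA1L (-0.60 ± 0.41, adjusted p 0.222), the testis gene next to HSPA1A.

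Genes with the pattern closest to that of HSPH1, HSPA8 and HSPA1B were sought among 13488 genes averaging at least 100 counts, as the smallest root mean square difference of log2 CPM relative to the WT mean over the 6 libraries. For HSPH1 these were RRP9 (0.0657), TUT4 (0.0681) and NOL6 (0.0779). For HSPA1B they were BRSK2 (0.0681), TMED2-DT (0.0718) and RRP12 (0.0828). For HSPA8 they were ANXA1 (0.0560), AC239799.2 (0.0606) and LINC00839 (0.0719). In each of these WT replicate 1 was the lowest WT library, as it was for HSPA8. The search itself favoured this, since it compared the WT libraries too, so it is no separate likeness. ANXA1, for instance, had 3.309, 4.269 and 4.369 CPM in WT and 10.83, 10.41 and 9.807 CPM in the libraries labelled ΔTUT4/7. These likenesses are descriptions over 6 libraries in 2 groups.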

How the data were processed

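rRNA-depleted total RNA of 3 WT and 3 ΔTUT4/7 HEK 293T libraries was sequenced in paired 76-base reads. The authors aligned them to hg38 with STAR 2.7.3a and quantified Ensembl genes in Partek Flow 10.0.22, and deposited estimated counts per gene, in which reads that fit several genes are shared out by the model. Whether counting used the strand was not given in the sources used here. The authors' own comparison table (fold changes and p-values) was not used.

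Estimated counts were rounded. Genes with a largest count above 12 were tested (23952; the 6318 others held 0.0962% of counts). Counts were TMM-scaled, with CPM relative to the scaled library size, and tested in edgeR 4.0.16 (robust quasi-likelihood, R 4.3.3) and adjusted by Benjamini-Hochberg over them all. All adjusted p-values come from edgeR unless another test is named. Library size, RLE and upper-quartile scaling, DESeq2 1.42.0, limma 3.58.1, other count filters, the replicate block, leaving out each library, and neighbour subtraction were alternatives. The steps were tested on simulated counts.

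The members, lists and tests were chosen with earlier results of these data known. Named genes are the members, TUT4, TUT7, up to 3 highest and 2 lowest called genes of each list, 12 genes fixed by name, the 2 HSPA8 pseudogenes with the highest mean counts and the 3 genes most alike to HSPH1, HSPA8 and HSPA1B; the overlapping genes, MSANTD7, HSPA1L, HSPA8P11 and HSPA8P14 were added after their values were seen. The values of 1 listed heat shock factor target are not reported here, and it stays in the counts of its list. Lengths come from GENCODE release 44.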

Additional observations from a re-analysis of the deposited data

How the results depend on the processing

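All 9 members kept their call and direction under each alternative fit of the counts, with 9 called in every one and 4 to 5 at least 2-fold higher (4 with library sizes alone and with upper-quartile scaling, where HSPA14 came to 0.97 and 0.98). Subtracting the median of the genes within 5 Mb reversed HSPA4L to 0.51 and moved HSPA2 to -2.29, HSPA4 to 0.80, HSPA13 to -0.62 and HSPA14 to 0.74; the cause was not tested. With each library left out in turn, HSPA1A ran from 1.15 to 1.63, HSPA8 from 1.26 to 1.46, HSPA1B from 2.18 to 2.27 and HSPH1 from 1.98 to 2.06. Limma on log2(CPM + 1) gave HSPA1A 1.00. The difference in the share of HSPA8 ran from -5.99 to -2.64 percentage points with a library left out, and was -0.0587 when counts were not divided by length and -4.59 per kb of all annotated exons.

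Replicate numbers did not pair the libraries (correlations of deviations 0.0519, -0.0115 and -0.0222). With the replicate block all 9 members were called and 13678 genes in all, against 13813 without it. Over the 23952 tested genes, 1412 were at least 2-fold higher and 2969 lower. Limma on log2(CPM + 1) gave 762 and 1270. Library sizes alone gave 1064 and 3468, with the median of all genes shifted by -0.11. A mean count of 50 or more left 15575 genes to test, and of this smaller set 722 were higher and 1440 lower. Low counts limit HSPA1A, HSPA2, HSPA6 and HSPA12B.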
